A study of Mus musculus with 6 samples.

Results

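Wnt signalling was described across 57 genes of the mouse uterus in mid-pregnancy: the Wnt ligands, their receptors, the secreted proteins that block or enhance them, and the first proteins of the response inside the cell. They are all rows of the deposited table, out of 24964, whose symbol belongs to the Wnt, Frizzled, Sfrp, Dickkopf or R-spondin families, to the receptors Lgr4 to Lgr6, Lrp5 and Lrp6, or to a short list of pathway proteins; the rule uses symbols alone, but it was set with earlier results of these data known. RNA was sequenced from uterine tissue around the implantation sites on gestation day 13. There were 3 control libraries and 3 libraries whose genotype is given as myometrial PGR knockout, that is, without the progesterone receptor in the muscle layer of the uterus. The Cre or other driver of the deletion, the strain, the age and the genotype of the controls are, in the sources used here, not given. Nothing in the labels says that the libraries came from separate mice, so p-values measure the spread between libraries, which may be technical. Values are FPKM, fragments on a gene divided by its length and by library size.

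Wnt proteins are secreted lipid-modified ligands. In the canonical branch a ligand binds a Frizzled receptor together with LRP5 or LRP6, which stops the destruction complex built on Axin, so that β-catenin accumulates and acts on genes through the TCF and LEF factors; other ligands, such as Wnt5a, mostly signal without β-catenin. Sfrp proteins carry a Frizzled-like domain that binds Wnts outside the cell, most Dickkopf proteins bind the LRP co-receptors, and R-spondins, through LGR4 to LGR6, remove the ubiquitin ligases ZNRF3 and RNF43 that otherwise clear Frizzled from the surface. In the uterus Wnt signals are known for patterning the female tract, for gland formation and for decidualization, the change of the stroma around an embryo.

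Pgr itself was not lower in the knockout group of this tissue, which was not restricted to muscle: it measured 9.72, 8.33 and 12.1 FPKM in controls but 11.3, 12.4 and 7.73 FPKM in the other group, a difference of 0.05 in log2(FPKM + 1) with an SE of 0.19 (limma adjusted p = 0.91). The sign was negative under 5 of the 17 alternative settings. The second group is therefore called the knockout-labelled libraries ("labelled deficient" in the plots), and every direction below rests on that label. The sources used here do not say which exons were removed, and a whole-gene level checks little. Library sums of FPKM ranged from 357126 to 377091, and at low values a read was worth the same to within 1.01 times in every column, while the depth of single libraries is unknown.

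Of the 57 members, 34 averaged at least 1 FPKM and were tested, and 23 lay under that filter. With limma on log2(FPKM + 1), adjusted over all 12500 genes tested, 4 members rose in the knockout-labelled libraries (Sfrp2, Rspo3, Dkk2 and Wnt5b) and 1 fell (Rspo1). These 5 are 14.7% of the members tested, where 3.34% of all genes passed the same threshold (1.34% higher and 1.99% lower). All 5 encode secreted proteins, but so do many of the members tested: 5 ligands, 7 antagonists, and Rspo1, Rspo3 and Rspo4. The groups did not overlap for 12 of the 34 members, 10 higher and 2 lower in the knockout-labelled libraries, or 35.3%, beside 29.0% of all genes (20.8% higher and 8.16% lower). The median log2 difference of the members was 0.14, and that of all genes tested was 0.06. Sfrp2 was called under all 17 alternative settings, while Rspo3 was called under 14 and Rspo1 under 13 of 17, and Dkk2 under 5 and Wnt5b under 4 of the 16 in which they were tested.

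**Figure D1:**
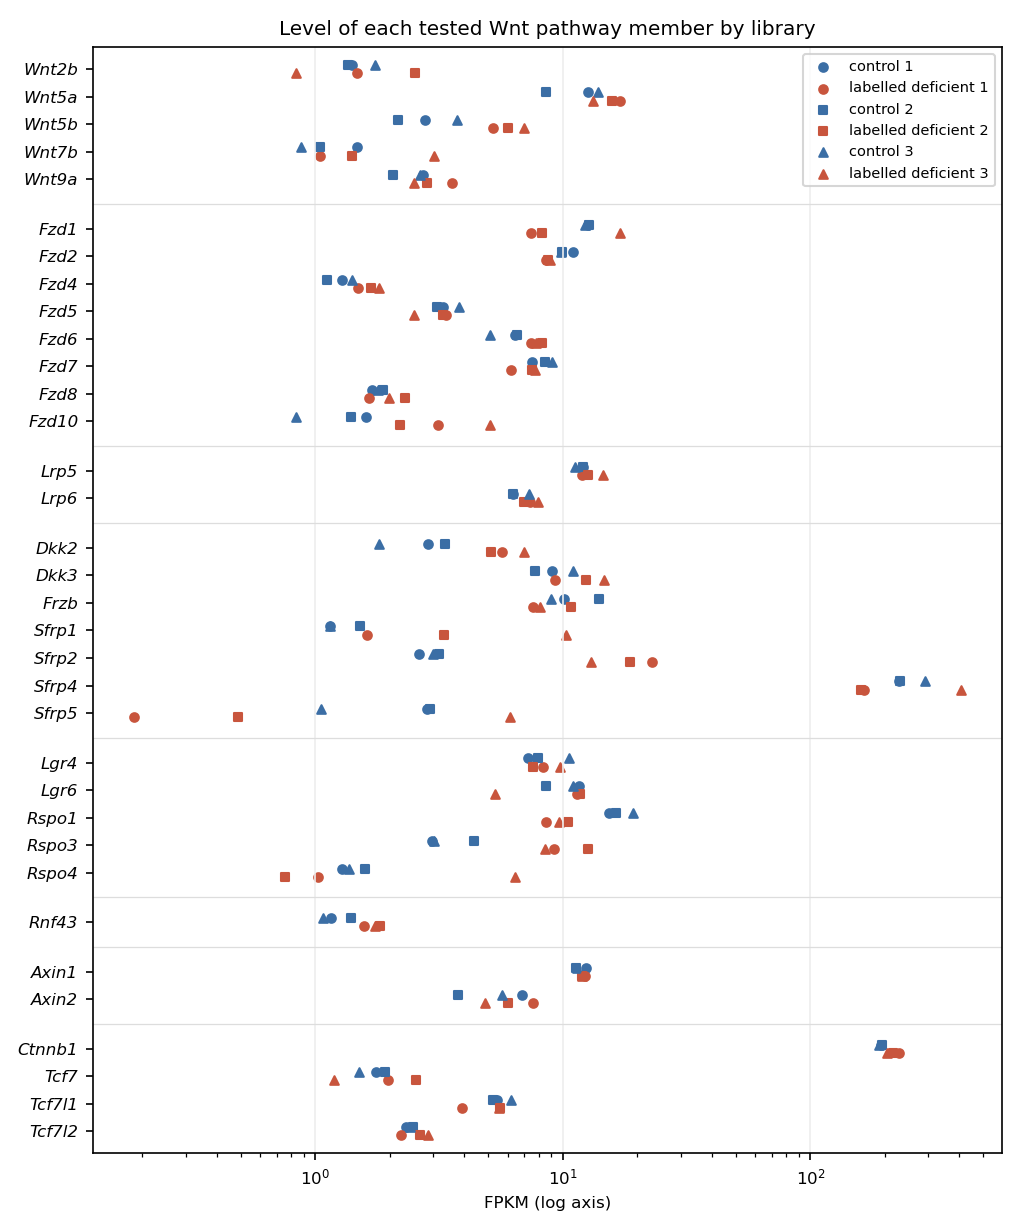
Level of the 34 tested members in each library, in FPKM on a log axis, grouped by role from the ligands at the top to β-catenin and the TCF factors at the bottom. Blue marks are the controls and red marks the libraries labelled deficient, with circle, square and triangle for replicates 1, 2 and 3. Sfrp4 and Ctnnb1 lie far to the right of the other members, and the red triangle of Sfrp1, Sfrp5 and Rspo4 lies to the right of the other marks.

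**Figure D2:**
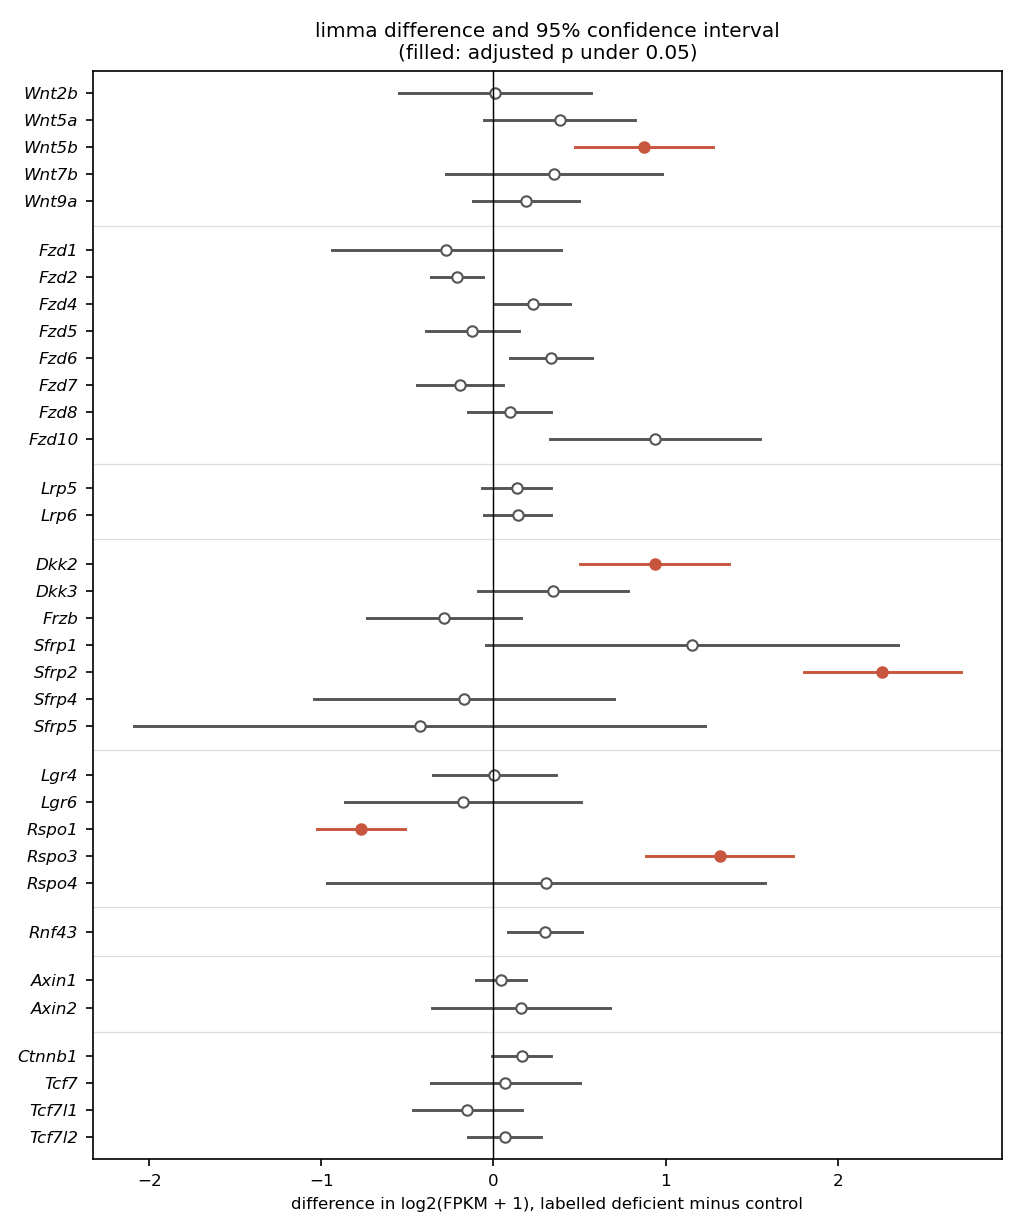
Difference in log2(FPKM + 1), labelled deficient minus control, for the 34 tested members, with the 95% confidence interval from limma. Filled red points passed an adjusted p of 0.05: Sfrp2, Rspo3, Dkk2 and Wnt5b to the right of 0 and Rspo1 to the left.

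Start-site windows are shown for Sfrp2, Rspo1, Dkk2 and Wnt5b because these genes passed the test between the groups; none is shown for Rspo3. RefSeq windows (GRCm38.p6) run from 250 bases before to 50 bases after a start, were matched for 38 of the 57 members, and held Sfrp2, Rspo1 and Dkk2 once each and Wnt5b with 3 starts, of which the most downstream is shown because it holds a TCF/LEF motif. They are written 5′ to 3′ on the strand of the gene, at chr3:83766071-83766370 (plus strand) for Sfrp2, chr4:124986180-124986479 (plus) for Rspo1, chr3:132085042-132085341 (plus) for Dkk2 and chr6:119449337-119449636 (minus) for Wnt5b. Capitals mark matches on either strand to CTTTGAT, a TCF/LEF motif, to TGTTCT, the hexamer to which progesterone and glucocorticoid receptors bind, or to TATAAA, the TATA box; no match overlapped another.
Sfrp2: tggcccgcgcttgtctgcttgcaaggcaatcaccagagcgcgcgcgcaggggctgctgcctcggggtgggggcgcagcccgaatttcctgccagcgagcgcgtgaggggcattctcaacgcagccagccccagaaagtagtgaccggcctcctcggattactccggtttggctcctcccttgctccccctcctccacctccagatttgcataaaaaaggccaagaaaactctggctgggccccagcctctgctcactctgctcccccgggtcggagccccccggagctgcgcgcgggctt
Rspo1: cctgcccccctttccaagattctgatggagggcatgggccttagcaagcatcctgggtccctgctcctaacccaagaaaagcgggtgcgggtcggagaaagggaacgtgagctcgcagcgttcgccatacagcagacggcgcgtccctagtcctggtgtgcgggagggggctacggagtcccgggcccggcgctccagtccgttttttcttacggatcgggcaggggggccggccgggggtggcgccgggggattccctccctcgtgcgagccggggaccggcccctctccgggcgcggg
Dkk2: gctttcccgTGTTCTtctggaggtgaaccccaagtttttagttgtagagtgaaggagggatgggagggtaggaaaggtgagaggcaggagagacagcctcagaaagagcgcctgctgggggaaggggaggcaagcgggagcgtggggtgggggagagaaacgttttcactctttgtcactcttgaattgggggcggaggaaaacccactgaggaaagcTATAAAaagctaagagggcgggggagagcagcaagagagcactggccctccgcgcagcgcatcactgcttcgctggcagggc
Wnt5b: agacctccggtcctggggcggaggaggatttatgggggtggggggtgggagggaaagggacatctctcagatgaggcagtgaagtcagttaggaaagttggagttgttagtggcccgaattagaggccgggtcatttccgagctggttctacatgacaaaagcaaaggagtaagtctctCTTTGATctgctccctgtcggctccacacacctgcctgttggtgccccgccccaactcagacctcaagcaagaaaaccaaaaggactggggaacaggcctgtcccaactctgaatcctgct

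The windows of Sfrp2 and Rspo1 held none of the 3 motifs and were rich in G and C (66.0% and 69.0%, beside a median of 53.0% over 32544 windows). The Dkk2 window held TGTTCT and TATAAA, and the Wnt5b window shown held CTTTGAT, while another Wnt5b start held TGTTCT. Over all windows, CTTTGAT was found in 3.73%, TGTTCT in 18.9% and TATAAA in 13.6%. A match is a description of the letters in the window and does not show binding.

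Markers of several cell types moved with the groups. All 10 smooth muscle markers tested fell, and their summed level ranged from 8113 to 9900.2 FPKM in the controls and from 3288 to 3868 FPKM in the knockout-labelled libraries. Of the mast cell markers, 4 of 5 tested fell (sums of 28.8 to 35.5 and 3.00 to 5.31 FPKM). Of 13 epithelial markers tested, Krt19 and Cdh1 rose and 0 fell, with overlapping sums (27530.5 to 39046 and 23274 to 38087 FPKM). Krt19 was also the 1 riser among 6 mesothelial markers, whose sums were 111 to 124 and 171 to 222 FPKM. Stromal markers (0 of 11 called) summed to 6293 to 6849 and 5565 to 5788 FPKM, and decidual markers (0 of 8 called) to 830.1 to 1064 and 551 to 745 FPKM. Dcn is in both of these lists, so the decidual sum is not of decidua alone. Of 7 pericyte markers 2 fell (138 to 140.2 and 133 to 146 FPKM), and 0 of 8 endothelial markers (134 to 143 and 122 to 168 FPKM) and 0 of 7 macrophage markers (466 to 545 and 454 to 511 FPKM) were called. Among sparse cells, 0 of 1 natural killer marker (1.48 to 2.35 and 2.34 to 7.97 FPKM) and 0 of 2 trophoblast markers (4.88 to 7.58 and 3.71 to 4.71 FPKM, with Gcm1 and Synb listed at 0) were called. The 1 erythroid marker tested, Alas2, rose (2.97 to 6.18 and 13.2 to 25.6 FPKM for the list), while the globin genes Hbb-bs, Hbb-bt and Hba-a1 were listed at 0, and no neuronal marker reached the filter (0.502 to 0.787 and 0.680 to 0.871 FPKM). The part of these shifts in the Wnt results was not tested, and in bulk tissue fewer cells of a type and less RNA per cell cannot be told apart.

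Wnt5a was the most abundant of the 19 ligands, and its relative Wnt5b was the ligand that rose. Both act mostly outside the β-catenin branch and are made by mesenchymal cells in many tissues. Wnt5b measured 2.77, 2.15 and 3.74 FPKM across the 3 controls and 5.21, 5.99 and 6.97 FPKM across the 3 knockout-labelled libraries. Every knockout-labelled library lay above every control. The means of 2.89 ± 0.80 and 6.05 ± 0.88 FPKM (SD, n = 3 each) give a level 2.10 times as high, and the log2 difference was 0.87 (SE 0.17, limma adjusted p = 0.048). This call sits at the threshold and was lost under most alternatives, with adjusted p between 0.011 and 0.17. Wnt5a measured 12.6, 8.54 and 13.9 FPKM across the 3 controls and 17.02, 15.8 and 13.2 FPKM across the 3 knockout-labelled libraries, where the lowest lay below the highest control, and it did not pass (log2 difference 0.39, SE 0.18, limma adjusted p = 0.29).

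Together Wnt5a and Wnt5b made up 61.3% to 71.2% of the summed ligand FPKM of a library. That sum was 17.4 to 24.8 FPKM in the controls and 29.0 to 31.8 FPKM in the knockout-labelled libraries, without overlap, and no test was made of sums. The share of Wnt5b in it was 11.8% to 15.04% and 16.7% to 24.1%, and that of Wnt5a 49.0% to 56.1% and 45.7% to 54.5%. The other ligands tested were Wnt9a (2.48 ± 0.36 and 2.97 ± 0.55 FPKM, SD, n = 3), Wnt2b (1.51 ± 0.21 and 1.61 ± 0.85 FPKM) and Wnt7b, a ligand of epithelia (1.13 ± 0.31 and 1.83 ± 1.06 FPKM), and their groups overlapped. Wnt7b reached its highest level, 3.03 FPKM, in knockout-labelled 3, where Wnt2b was lowest at 0.834 FPKM.

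The other 14 ligands lay under the filter, with means of at most 0.802 FPKM, and Wnt1 was listed at 0 in every library. The highest of them was Wnt4, which is required for decidualization in the mouse, at 0.686, 0.604 and 0.646 FPKM in the controls and 0.994, 0.941 and 0.942 FPKM in the knockout-labelled libraries. These groups did not overlap, and in the fit with no filter its limma adjusted p was 0.068. Wnt7a, a ligand of the luminal epithelium, measured 0.315, 0.248 and 0.325 FPKM across the 3 controls and 0.504, 0.515 and 0.009 FPKM across the 3 knockout-labelled libraries, so that knockout-labelled 3 was nearly without it. Wnt16 averaged 0.552 FPKM over the 6 libraries and Wnt6 averaged 0.217 FPKM, and Wnt2, Wnt10b and Wnt11 averaged between 0.168 and 0.173 FPKM. Wnt3, Wnt3a, Wnt8a, Wnt8b, Wnt9b and Wnt10a averaged at most 0.0578 FPKM.

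Some ligand genes lie beside each other in the genome. Wnt9a (chromosome 11, 59306928 to 59333552, GRCm38) averaged 2.73 FPKM, while Wnt3a, which starts 16176 bases away on the opposite strand, averaged 0.00167 FPKM. Wnt3 and Wnt9b on chromosome 11, Wnt6 and Wnt10a on chromosome 1, and Wnt1 and Wnt10b on chromosome 15 are the other neighbouring pairs, and all of these lay under the filter.

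None of the 8 Frizzled receptor genes tested passed with limma. With array weights, where 14.2% of all genes passed, Fzd10 (adjusted p = 0.044) and Fzd2 (0.035) did so. By the mean over the 6 libraries Fzd1 led the family, followed by Fzd2, Fzd7 and Fzd6, though Fzd2 exceeded Fzd1 in knockout-labelled 1 and 2. Fzd1 measured 12.6, 12.7 and 12.3 FPKM across the 3 controls, which lay close together, and 7.46, 8.23 and 16.98 FPKM across the 3 knockout-labelled libraries. Knockout-labelled 1 and 2 lay below every control and knockout-labelled 3 above every control, and the log2 difference was -0.27 (SE 0.28, limma adjusted p = 0.61). Without knockout-labelled 3 it was -0.62 (limma adjusted p = 0.016), without knockout-labelled 1 it was -0.07 (0.93), and without knockout-labelled 2 it was -0.14 (0.86).

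Fzd10, a receptor of the Fzd4, Fzd9 and Fzd10 subfamily, measured 1.61, 1.401 and 0.836 FPKM across the 3 controls and 3.14, 2.21 and 5.10 FPKM across the 3 knockout-labelled libraries. The groups did not overlap, but the spread in the second group was wide, and the log2 difference of 0.94 (SE 0.25) did not pass (limma adjusted p = 0.11). Fzd6, a receptor of planar polarity, was at 6.002 ± 0.812 and 7.81 ± 0.40 FPKM (SD, n = 3 each), Fzd4 at 1.27 ± 0.15 and 1.66 ± 0.16 FPKM, and Fzd2 at 10.3 ± 0.6 and 8.71 ± 0.18 FPKM. These 3 were also separated between the groups, and their limma adjusted p lay between 0.13 and 0.22. The groups overlapped for Fzd7 (8.32 ± 0.77 and 7.15 ± 0.85 FPKM), Fzd5 (3.40 ± 0.37 and 3.05 ± 0.47 FPKM) and Fzd8 (1.79 ± 0.09 and 1.99 ± 0.33 FPKM).

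In sum, Frizzled transcripts reached 44.4 to 45.8 FPKM in the controls and 39.6, 42.5 and 53.3 FPKM in the knockout-labelled libraries. Fzd1 supplied 27.6% to 27.9% of that in the controls, 18.8% and 19.4% in knockout-labelled 1 and 2, and 31.9% in knockout-labelled 3. The share of Fzd10 was 1.88% to 3.52% in the controls and 5.20% to 9.58% in the knockout-labelled libraries. Fzd3 and Fzd9 lay under the filter, at means of 0.323 and 0.0533 FPKM.

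The co-receptor genes Lrp5 and Lrp6 did not pass with limma (adjusted p of 0.40 and 0.37). Lrp5 measured 12.1, 12.1 and 11.2 FPKM across the 3 controls and 11.98, 12.7 and 14.5 FPKM across the 3 knockout-labelled libraries, and its log2 difference of 0.13 had a 95% confidence interval from -0.07 to 0.34. Lrp6 was at 6.63 ± 0.56 and 7.40 ± 0.49 FPKM (SD, n = 3 each), with an interval from -0.05 to 0.33.

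**Figure D3:**
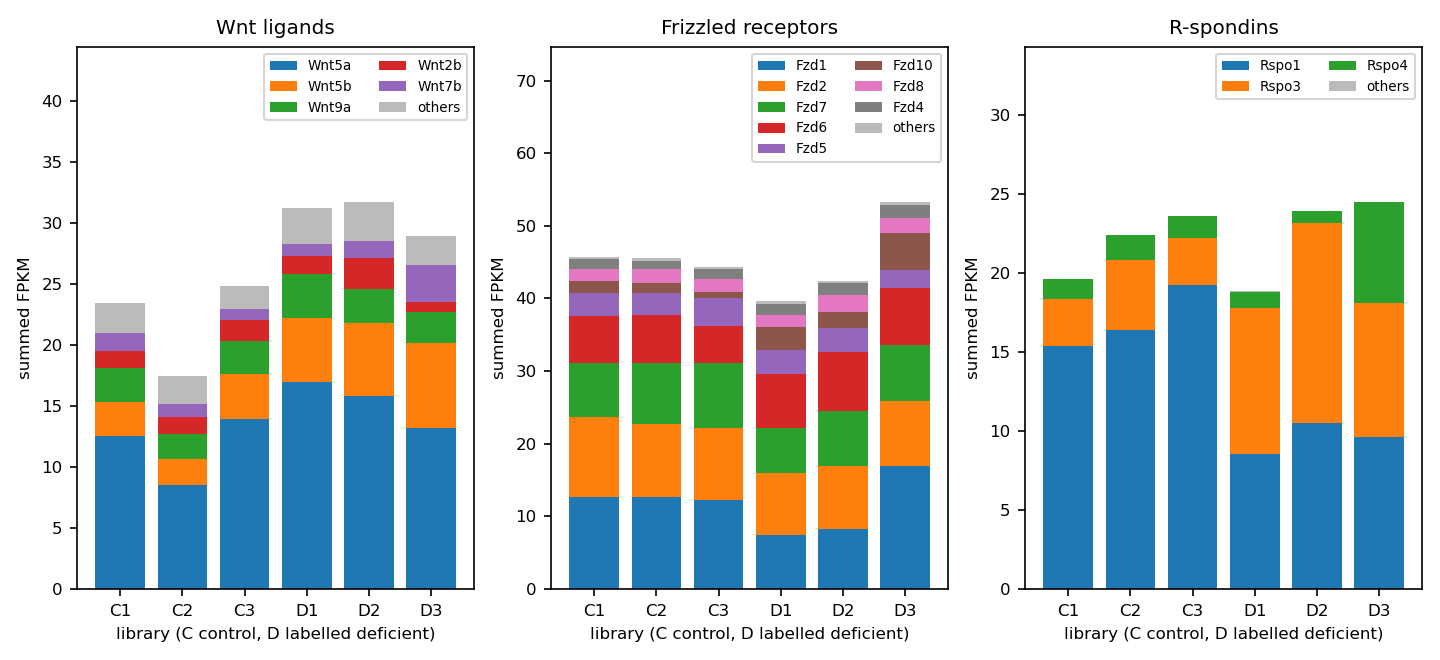
Summed FPKM of the Wnt ligands, Frizzled receptors and R-spondins in each library, stacked by gene, with C1 to C3 for the controls and D1 to D3 for the libraries labelled deficient. The ligand bars are taller in D1 to D3, the Fzd1 segment is shortest in D1 and D2, and in the third panel Rspo1 shrinks and Rspo3 widens at total heights that overlap between the groups.

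Among the 10 secreted antagonists, Sfrp2 changed the most. Sfrp2 measured 2.64, 3.15 and 3.00 FPKM across the 3 controls and 22.9, 18.8 and 13.0 FPKM across the 3 knockout-labelled libraries. The lowest of the second group, knockout-labelled 3, still lay far above the highest control, and the means of 2.93 ± 0.26 and 18.2 ± 4.9 FPKM (SD, n = 3 each) give a level 6.22 times as high. The log2 difference was 2.26 (SE 0.19, 95% confidence interval from 1.80 to 2.71, limma adjusted p = 0.0044), and over the 17 alternatives it ranged from 2.09 to 2.56 with adjusted p of at most 0.037.

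Dkk2, a Dickkopf that binds LRP6, measured 2.85, 3.33 and 1.81 FPKM across the 3 controls and 5.70, 5.13 and 6.99 FPKM across the 3 knockout-labelled libraries. All 3 of the latter lay above all controls. The means were 2.66 ± 0.78 and 5.94 ± 0.95 FPKM (SD, n = 3 each), a level 2.23 times as high, and in log2 a difference of 0.94 (SE 0.18, limma adjusted p = 0.049). As for Wnt5b, this call sits at the threshold, and adjusted p reached 0.15 among the alternatives. Dkk3, a divergent member of the family, was at 9.27 ± 1.66 and 12.1 ± 2.7 FPKM with overlapping groups. Dkk1, the best known inhibitor of the family, averaged 0.008 FPKM, and Dkk4 was listed at 0 in every library.

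Sfrp4 was by far the most abundant antagonist, and of all members only Ctnnb1 came near it. It measured 227, 230.3 and 292 FPKM across the 3 controls and 165, 160.0 and 405 FPKM across the 3 knockout-labelled libraries. Knockout-labelled 1 and 2 lay below every control and knockout-labelled 3 above every control, so the group means hardly differed (249.7 ± 36.5 and 243 ± 140 FPKM, SD, n = 3 each, limma adjusted p = 0.82). Sfrp4 held between 75.9% and 91.5% of the summed antagonist FPKM of a library. All antagonists together summed to 256 to 319 FPKM in the controls and 211 to 464 FPKM in the knockout-labelled libraries, and these ranges overlapped. Without Sfrp4 the sums were 27.0 to 32.7 FPKM and 47.3 to 59.3 FPKM, which did not overlap. That smaller sum includes Sfrp2, with means of 2.93 and 18.2 FPKM, and Dkk2. Both were called from these same values, so the smaller sum is not a separate result.

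Sfrp1 and Sfrp5, which are close relatives, were also spread widely in the knockout-labelled libraries. Sfrp1 measured 1.15, 1.52 and 1.15 FPKM across the 3 controls and 1.62, 3.32 and 10.3 FPKM across the 3 knockout-labelled libraries. Although each of the latter lay above the controls, the log2 difference of 1.15 had an SE of 0.50 and did not pass (limma adjusted p = 0.25). Sfrp5 measured 2.82, 2.90 and 1.06 FPKM across the 3 controls and 0.186, 0.488 and 6.13 FPKM across the 3 knockout-labelled libraries. As with Sfrp4, knockout-labelled 1 and 2 lay below and knockout-labelled 3 above every control (limma adjusted p = 0.76). Frzb, a further Frizzled-related protein, was at 11.0 ± 2.6 and 8.81 ± 1.71 FPKM with overlapping groups, and Wif1 averaged 0.004 FPKM.

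The R-spondins changed in opposite directions. Rspo1, which led in the controls, fell, and Rspo3 rose to exceed it in knockout-labelled 1 and 2 but not in 3. Both proteins enhance Wnt signalling through the same LGR receptors.

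Rspo1 measured 15.4, 16.4 and 19.2 FPKM across the 3 controls and 8.59, 10.5 and 9.61 FPKM across the 3 knockout-labelled libraries. The groups did not overlap, and the means of 17.02 ± 1.99 and 9.57 ± 0.96 FPKM (SD, n = 3 each) differ by -0.77 in log2 (SE 0.11, limma adjusted p = 0.020). Without control 1, control 2 or knockout-labelled 1 it lost its call (adjusted p up to 0.077).

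Rspo3 measured 2.97, 4.38 and 3.03 FPKM across the 3 controls and 9.21, 12.7 and 8.49 FPKM across the 3 knockout-labelled libraries. Each of the latter was higher than each control, at 3.46 ± 0.80 and 10.1 ± 2.2 FPKM (SD, n = 3 each), 2.93 times the control level, and in log2 a difference of 1.32 (SE 0.18, limma adjusted p = 0.0185). Its call was lost without control 1, control 3 or knockout-labelled 1 (adjusted p up to 0.086).

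The ratio of Rspo3 to Rspo1, a description made after their values were seen, was 0.193, 0.266 and 0.157 in the controls and 1.07, 1.21 and 0.883 in the knockout-labelled libraries. Their sum overlapped between the groups, at 18.4 to 22.3 and 17.8 to 23.2 FPKM. Rspo4 measured 1.28, 1.59 and 1.38 FPKM across the 3 controls and 1.03, 0.759 and 6.42 FPKM across the 3 knockout-labelled libraries, another member that was low in knockout-labelled 1 and 2 and high in knockout-labelled 3. Rspo2 averaged 0.00667 FPKM.

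Of the R-spondin receptors, Lgr4 was at 8.59 ± 1.76 and 8.57 ± 1.11 FPKM (SD, n = 3 each). Lgr6 measured 11.6, 8.53 and 11.0 FPKM across the 3 controls and 11.5, 11.7 and 5.32 FPKM across the 3 knockout-labelled libraries, with knockout-labelled 3 the lowest of all. Lgr5, the marker of intestinal stem cells, averaged 0.020 FPKM. The ubiquitin ligase gene Rnf43 measured 1.16, 1.396 and 1.07 FPKM across the 3 controls and 1.57, 1.83 and 1.74 FPKM across the 3 knockout-labelled libraries. These groups did not overlap, but the log2 difference of 0.30 (SE 0.09) did not pass (limma adjusted p = 0.14). Znrf3, its partner, averaged 0.983 FPKM and lay just under the filter.

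**Figure D4:**
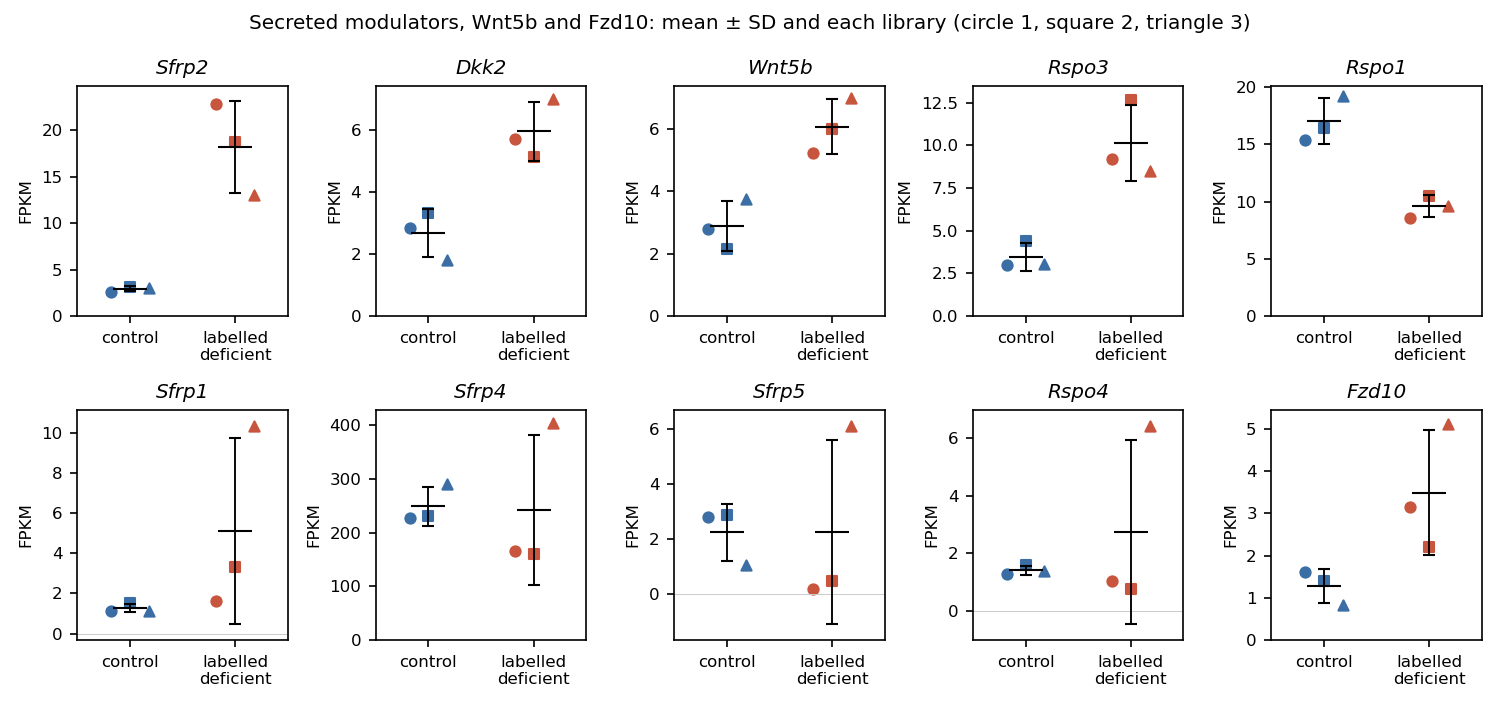
FPKM of 10 members in each library (blue controls, red libraries labelled deficient; circle, square and triangle for replicates 1, 2 and 3), with the group mean and SD as black bars on a linear axis. In the upper row the groups are apart for Sfrp2, Dkk2, Wnt5b, Rspo3 and Rspo1. In the lower row the red triangle, labelled deficient 3, lies above the other marks for Sfrp1, Sfrp4, Sfrp5, Rspo4 and Fzd10.

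None of the 6 tested genes that carry the signal inside the cell passed with limma. Ctnnb1, which encodes β-catenin, measured 193, 194 and 189.9 FPKM across the 3 controls and 229, 216 and 203 FPKM across the 3 knockout-labelled libraries. The groups did not overlap, and the log2 difference of 0.16 (SE 0.07, 95% confidence interval from -0.01 to 0.34) did not pass (limma adjusted p = 0.25). β-catenin also joins cadherins at cell junctions, so its transcript does not report on signalling alone. Axin1, a scaffold of the destruction complex, measured 12.4, 11.3 and 11.4 FPKM across the 3 controls and 12.3, 11.9 and 11.9 FPKM across the 3 knockout-labelled libraries, with a log2 difference of 0.04 whose sign turned under median-of-ratios scaling and quantile normalization.

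Axin2, a widely used readout of β-catenin activity because its transcription follows it, measured 6.86, 3.79 and 5.70 FPKM across the 3 controls and 7.56, 6.02 and 4.85 FPKM across the 3 knockout-labelled libraries. These overlapped, and the log2 difference of 0.16 had a 95% confidence interval from -0.36 to 0.68 (limma adjusted p = 0.71). Of the TCF factors, Tcf7l1, mainly a repressor, was the most abundant at 5.62 ± 0.49 and 4.999 ± 0.951 FPKM (SD, n = 3 each), followed by Tcf7l2 (2.41 ± 0.08 and 2.58 ± 0.33 FPKM) and Tcf7 (1.72 ± 0.21 and 1.91 ± 0.68 FPKM). All 3 overlapped between the groups, and Lef1 averaged 0.205 FPKM.

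Knockout-labelled 3 stood apart over all genes tested as well as in this gene family. Its correlations with knockout-labelled 1 and 2 across genes were 0.976 and 0.971, beside 0.991 between those libraries. Control 3 also differed from controls 1 and 2, at 0.983 and 0.982, beside 0.992 between those. The epithelial markers summed to 39046 FPKM in control 3 and 38087 FPKM in knockout-labelled 3, and to 23274 to 28139 FPKM in the remaining libraries. Whether this sum bears on the Wnt values of knockout-labelled 3 was not tested. In 6 of the 34 members tested (17.6%) knockout-labelled 3 lay beyond all 5 other libraries by at least 0.5 in log2(FPKM + 1), a margin chosen after the values were seen. Over all genes tested this held for 2.24%, beside 0.256% to 0.896% for each of the other 5 libraries. It was higher for Wnt7b, Fzd10, Sfrp1, Sfrp5 and Rspo4 and lower for Lgr6. Of the other libraries, control 2 did so for Wnt5a, which was low there, and the others for 0 members. Without the third library of each group, 10.2% of all genes passed with limma (1274, beside 417 with all libraries), and 8 members did: the 5 above and Fzd1 (log2 difference -0.63, adjusted p = 0.018), Sfrp4 (-0.49, adjusted p = 0.020) and Sfrp5 (-1.54, adjusted p = 0.013), all of them lower.

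Other genes of the pathway, taken from 4 lists that hold no member, were called about as often as all genes (3.34%): of 76 tested, 2 rose and 1 fell. Among 16 genes of ligand release and extracellular control, Gpc4, a cell surface heparan sulfate proteoglycan, fell from 19.6, 19.7 and 18.1 FPKM to 8.92, 11.4 and 9.24 FPKM (log2 difference -0.90, SE 0.10, limma adjusted p = 0.010). Among 14 genes of alternative receptors and planar polarity, Celsr2, a cadherin of planar polarity, rose from 0.916, 0.735 and 0.829 FPKM to 1.83, 3.72 and 2.45 FPKM (0.97, SE 0.19, limma adjusted p = 0.048), a call lost in 8 of 16 alternatives. Among 21 nuclear cofactors, Tle3, a Groucho corepressor that binds TCF factors, rose from 12.8, 12.1 and 13.98 FPKM to 19.1, 17.7 and 17.7 FPKM (0.46, SE 0.07, limma adjusted p = 0.030), a call lost in 7 of 17 alternatives. None of 25 genes of intracellular transduction, the Dishevelled, Gsk3 and casein kinase genes among them, passed with limma.

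Of 23 tested genes known as β-catenin targets in one tissue or another, 1 rose and 1 fell, beside 3.34% of all genes called. Ephb3, an ephrin receptor controlled by β-catenin in the intestine, rose from 3.26, 3.08 and 3.21 FPKM to 4.36, 4.65 and 4.87 FPKM (log2 difference 0.43, SE 0.07, limma adjusted p = 0.027), a call lost in 7 of 16 alternatives. Fn1, the matrix protein fibronectin, known as a target in Xenopus, fell from 559, 590.2 and 583 FPKM to 124, 167 and 136 FPKM (-2.02, SE 0.12, limma adjusted p = 0.0022). The median difference of the list was 0.15, beside 0.06 for all genes.

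The called genes lie on 4 chromosomes (GRCm38, GENCODE M21): Sfrp2 at 83766321 to 83774316 and Dkk2 at 132085292 to 132180304 on chromosome 3, Rspo1 at 124986430 to 125009099 on chromosome 4, Wnt5b at 119432531 to 119544347 on chromosome 6, and Rspo3 at 29452416 to 29535867 on chromosome 10. Exons of Sfrp2 and Rspo3 overlap those of an antisense gene (Gm26771 and Gm48159), and because the sources used here do not give the strand setting, reads of such partners may not be told apart.

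**Figure D5:**
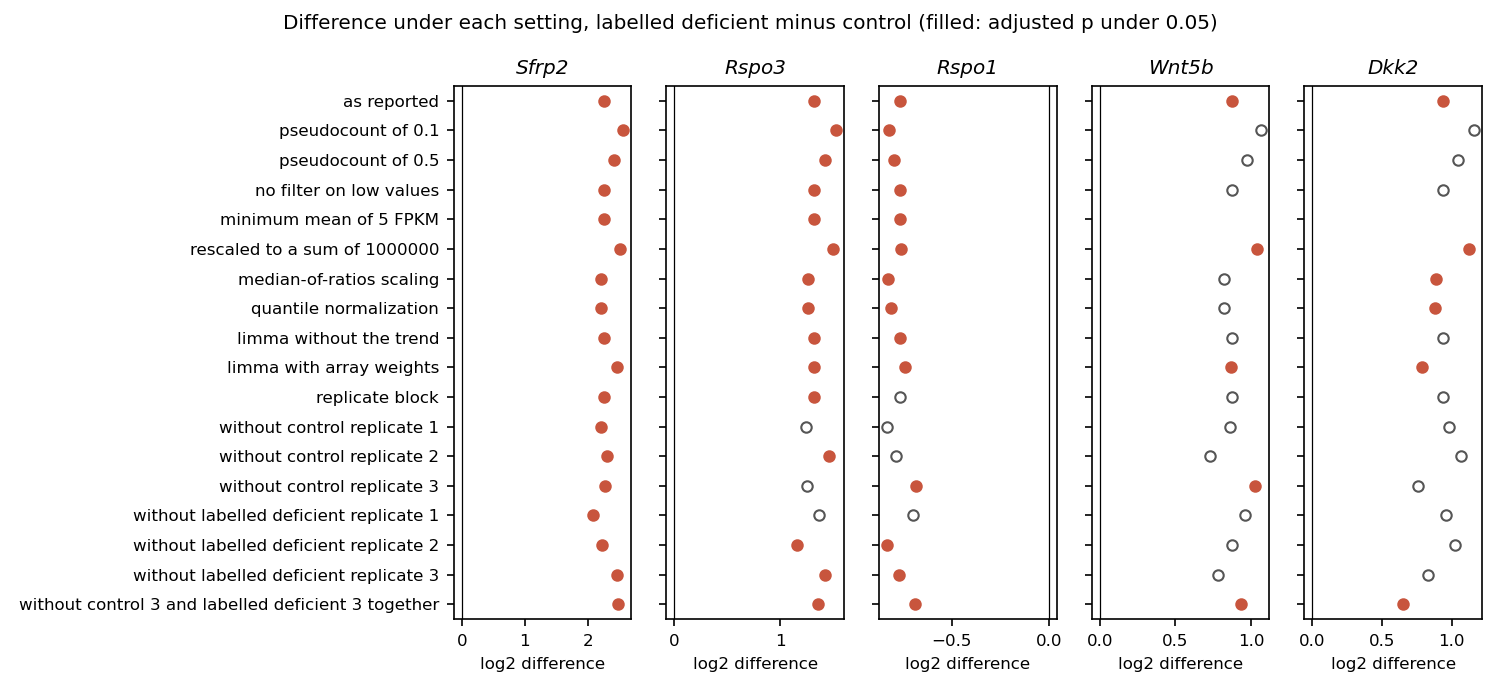
Log2 difference of the 5 called members under the fit as reported and each alternative setting, labelled deficient minus control, with filled points where the limma adjusted p was under 0.05. Points of Sfrp2 are filled throughout, those of Wnt5b and Dkk2 mostly open, and no point crosses 0.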

How the data were processed

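Values were deposited by the authors as FPKM for 24964 gene symbols, and each of the 6 columns carries a name found in 1 sample's labels. Build mm10 (GRCm38) and the tools STAR 2.7.0f, cutadapt 2.7 and DESeq2 1.24.0 are named, per the submitters' processing notes, without their roles; the sources used here give no counting program, annotation or FPKM formula. FPKM is not a count, so no count model was fitted. RNA came from TRIzol extracts, per the labels' protocols.

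Here, limma 3.58.1 in R 4.3.3 (lmFit, eBayes with an intensity trend) was run on log2(FPKM + 1) for the 12500 genes that averaged 1 FPKM or more, each difference being knockout-labelled minus control, no covariate, and Benjamini-Hochberg adjustment over all genes tested at a threshold of 0.05. Log2 differences on this scale understate changes of low genes; levels, sums, shares and ratios are on the FPKM scale. The code was tested on simulated data. The members and lists were chosen with earlier results of these data known. Levels in every library are given for members past the threshold, for members whose groups do not overlap and differ by at least 0.5, for the most abundant of each role and, chosen after their values were seen, for Fzd1, Sfrp5, Rspo4, Lgr6, Axin2, Wnt4 and Wnt7a. Alternatives changed the pseudocount (0.1, 0.5), the filter (none, or a mean of 5 FPKM), the scaling (3 others) or the limma settings (no trend, array weights), used replicate number as block, or left libraries out. Sequences are from RefSeq tables (GRCm38.p6) and positions from GENCODE M21.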

Additional observations from a re-analysis of the deposited data

How the results depend on the processing

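Of the 5 called members none changed sign in any alternative, and Sfrp2 was called in all 17. Against 5 members called (4 higher, 1 lower), 3 were called with 2 higher under pseudocounts of 0.1 and 0.5, with no filter, with a minimum mean of 5 FPKM and without the trend. At the minimum of 5 FPKM, Wnt5b and Dkk2 were not tested, as they averaged 4.47 and 4.30 FPKM. Array weights gave 7 members (5 higher, 2 lower, Fzd10 and Fzd2 being added), 11 other pathway genes, 5 targets and 1770 genes in all (417 as reported). Without control 3 and knockout-labelled 3 together, 8 members (4 lower), 5 other pathway genes, 5 targets and 1274 genes were called. With no filter or a minimum mean of 5 FPKM 1 target was called, and with median-of-ratios scaling or quantile normalization 3 were. The members' median difference of 0.14 was 0.027 with no filter, 0.045 with a minimum mean of 5 FPKM, 0.19 after rescaling to equal sums, 0.080 (median-of-ratios) and 0.077 (quantile normalization); the cause was not tested.

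Samples of the 2 groups share replicate numbers. Same-numbered libraries had correlations of deviations across genes of -0.14, 0.079 and -0.13. Between differently numbered libraries these correlations ranged from -0.13 to 0.20. With so few libraries per group, these values cannot decide whether the numbers pair them. With the replicate block, 2 members were called, 2 higher and 0 lower (Rspo1, the only member called lower, had an adjusted p of 0.055 in limma), with 1 other pathway gene, 1 target and 143 genes in all.

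With 1 library left out, between 1 and 4 members (1 to 2 higher, 0 to 2 lower), 0 to 3 other pathway genes, 1 to 2 targets and 99 to 519 genes were called, and the median was between 0.11 and 0.16. Signs turned for genes that were not called. Pgr was at -0.012 with median-of-ratios scaling, -0.0054 with quantile normalization, and from -0.078 to 0.23 with 1 library left out (negative without control 2, knockout-labelled 1 or knockout-labelled 2). Axin1 was at -0.014 and -0.0082 under the same 2 scalings. With 1 library left out, Sfrp4 ranged from -0.61 to 0.060 (positive without knockout-labelled 1 or 2) and Sfrp5 from -1.24 to 0.057 (positive without knockout-labelled 1). Lgr6 was at 0.0015 with array weights, 0.16 without knockout-labelled 3 and 0.20 without control 3 and knockout-labelled 3, and Rspo4 at -0.042, -0.35 and -0.36 in the same fits, with a highest value of 0.69 without knockout-labelled 2. The depth of single libraries is unknown, and no counting error was computed.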
